A study of Mus musculus with 10 samples.

Results

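Crypt cells of mouse small intestine in which Rbpj had been deleted were compared with sorted Lgr5-positive stem cells. The comparison takes the 2 arrays labelled as secretory progenitors with Rbpj knockout (Rbpj Sec-Pro) and the 2 arrays labelled as Lgr5-positive intestinal stem cells (ISC), 4 of the 10 arrays of the study, and covers 12393 genes. All arrays were Affymetrix mouse 430A 2.0 arrays hybridised with total RNA of C57BL/6 mice. For the Rbpj arrays, villi were removed by hand and crypts were loosened over 50 min at 4 °C with EDTA (5 mM), and no sorting is described, so they hold whole crypt epithelium. The promoter or Cre line behind the deletion is not given in the labels. The ISC arrays hold cells sorted by green fluorescent protein from Lgr5-eGFP-Cre mice, in which the Lgr5 gene carries the reporter, so a higher Lgr5 level in ISC is set by the sort. A further pair of arrays, used for comparison, holds crypt cells of mice given dibenzazepine, a Notch inhibitor (DBZ Sec-Pro). The remaining arrays, of Atoh1-/- mice, hold enterocyte progenitors of the crypt (Ent-Pro) and mature enterocytes of the villus (ENT) and added to the estimate of the spread. Ages are not given in the labels.

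Rbpj is the DNA-binding protein through which all Notch receptors act on their target genes. In the crypt, Notch signalling keeps stem cells and absorptive progenitors from becoming secretory cells, partly by way of Hes1, a repressor of Atoh1. Atoh1 is the transcription factor that starts the secretory programme of goblet, Paneth and enteroendocrine cells.

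Values are log2 expression as deposited. A gene was called when its adjusted p in limma (Benjamini-Hochberg over all genes) was below 0.05. Separate animals are not stated for the arrays of a group, so each p-value reflects only how far these samples spread, possibly for technical reasons. In ISC, however, the Y-linked gene Eif2s3y read 8.96 on array 1 and 3.61 on array 2. It was low on every other array too, so male RNA was seen on ISC array 1 alone. Xist, an X-linked transcript of female cells, read 13.69 on ISC array 1 and 13.996 on ISC array 2. Array 1 thus holds RNA of both sexes, from more than 1 mouse. Whether the ISC arrays also share RNA of the same mice cannot be told. In such bulk samples, fewer cells of a type and less RNA per cell cannot be told apart.

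The preparations differed in the Gapdh and Actb 3′ controls of the array. The Gapdh control probe set at the 3′ end of the transcript exceeded that at the 5′ end by 1.61 and 1.81 (log2) on the ISC arrays, against -0.01 and 0.03 on the Rbpj arrays and -0.02 to 0.32 on all arrays outside ISC. The Actb controls gave 1.92 and 2.02 in ISC and 0.49 and 0.59 in Rbpj Sec-Pro. A 3′ excess marks shortened or incompletely copied RNA. The excess of Gapdh and Actb moves with the comparison, and its part in the results was not tested. The other controls, both dimmer, did not follow it. For Pcx the 3′ excess was 1.49 and 1.26 on the ISC arrays and the higher 2.21 and 2.10 on the Rbpj arrays. Its 3′ probe set rose from 7.72 and 7.79 to 8.47 and 8.33, while the 5′ read 6.23 and 6.54 against 6.26 and 6.22. For Tfrc the excess was 1.45 and 0.78 against 1.36 and 1.54, which overlap. Its 5′ probe set read only 5.02 and 5.07 on the Rbpj arrays. With 5′ probe sets this dim, these controls cannot decide whether ISC RNA was shorter. Among called genes with several probe sets, every probe set had the same sign for 619 of 980 higher genes (63.2%) and 1085 of 1574 lower genes (68.9%).

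**Figure D1:**
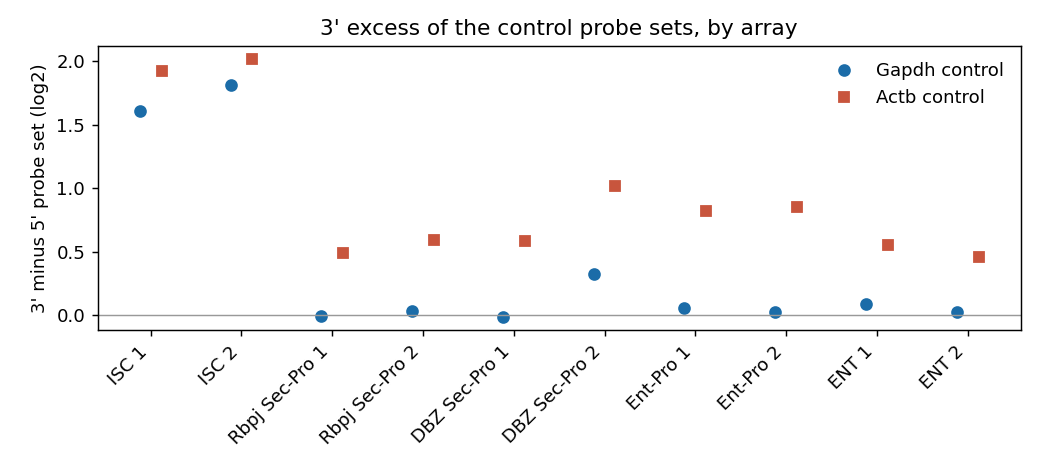
Difference between the 3′ and 5′ control probe sets (log2, vertical axis) of Gapdh (circles) and Actb (squares) on each of the 10 arrays (horizontal axis). Both ISC arrays lie above 1.6 for either control. The next highest value is 1.01, for Actb on DBZ Sec-Pro replicate 2. The Pcx and Tfrc controls are not plotted.

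The Rbpj arrays also differed from each other more than those of any other group. Between them, 492 genes (3.97%) were over 2-fold apart, against 41 genes (0.331%) between the ISC arrays and 70 to 137 in the other groups. The standard deviation of the gap over genes was 0.48 (log2), against 0.24 to 0.31 in the other groups. The p-values use 1 spread for each gene, pooled over all groups. For genes with a wide gap between the Rbpj arrays, that spread can be too small and so can the p-value. Which genes were far apart is given with each result.

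In all, 5832 of the 12393 genes (47.1%) were called, 2191 higher (17.7%) and 3641 lower (29.4%) in Rbpj Sec-Pro. At least 2-fold differences were called for 1113 genes higher (8.98%) and 1152 lower (9.3%). The median over all genes was -0.14, and cyclic loess scaling raised it by 0.16. With that scaling 2888 genes were called higher and 2659 lower, so that 52.1% of the calls were higher in place of 37.6%. Centring on array medians gave 43.6% and quantile scaling 42.4%. List medians below are to be read against -0.14.

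**Figure D2:**
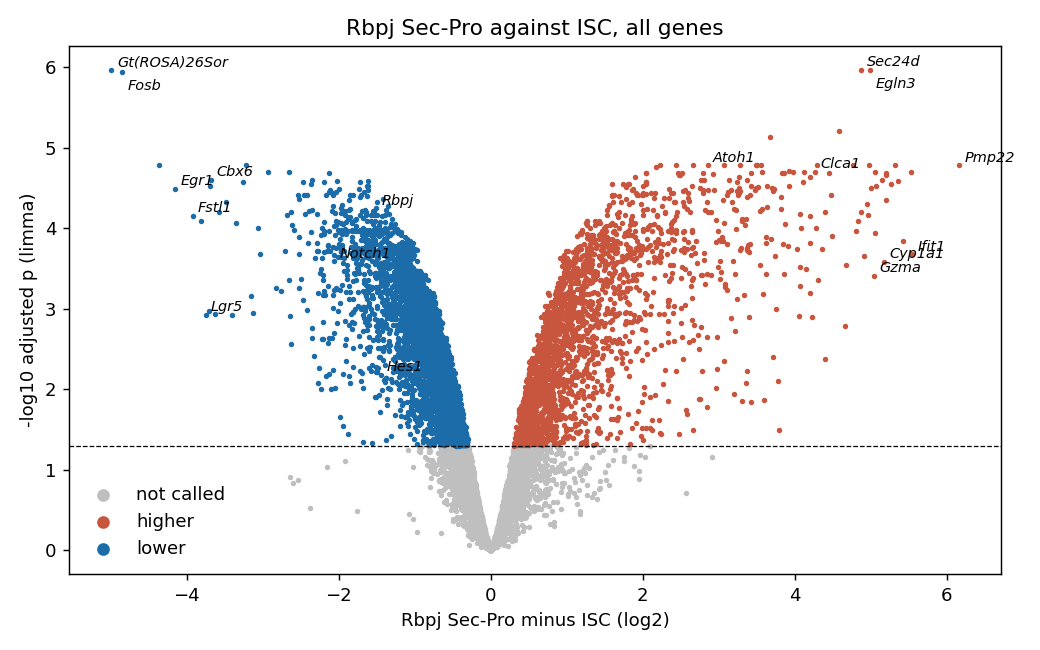
Rbpj Sec-Pro minus ISC (log2, horizontal axis) against -log10 of the adjusted p from limma (vertical axis) for each of the 12393 genes; the dashed line is the threshold of 0.05. Pmp22 lies farthest to the right at 6.16 and Gt(ROSA)26Sor farthest to the left at -4.99.

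The targeted gene was measured first. Rbpj read 8.15 and 8.22 on the ISC arrays, 6.74 and 6.62 on the Rbpj arrays and 8.26 and 8.31 on the DBZ arrays. Both Rbpj arrays lay below all others named here, a 2.84-fold difference from ISC (log2 -1.50, SE 0.12, adjusted p 5.6e-05). The ENT arrays, not labelled as Rbpj knockout, read 7.003 and 7.213, also below ISC and slightly above the Rbpj arrays. The Ent-Pro arrays read 8.16 and 8.07. A level below ISC is thus not particular to Rbpj deletion here. The other probe set of Rbpj differed by -0.26 and was not called. Whether either probe set lies in the deleted stretch is not given in the labels.

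The Notch pathway list held 35 measured genes, of which 14 fell and 3 rose (median -0.28). Receptors led the decrease. Notch1 read 10.67 and 10.63 in ISC and 8.17 and 9.01 in Rbpj Sec-Pro, 4.17-fold lower (adjusted p 0.00026). Notch2 was 4.08-fold lower (log2 -2.03, SE 0.22), although its other probe set moved by -0.20 and was not called. Spen, a corepressor partner of Rbpj, was 3.71-fold lower. Notch3 (0.15) and Notch4 (-0.61) did not pass.

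Hes1, the Notch target and repressor of Atoh1, read 9.83 and 9.79 in ISC, against 8.05 and 8.68 on the Rbpj arrays and 7.70 and 6.72 on the DBZ arrays. The ISC arrays were highest and the groups did not overlap. Hes1 was 2.73-fold below ISC (log2 -1.45, SE 0.33, adjusted p 0.0066) and 1.16 (log2) above DBZ Sec-Pro (adjusted p 0.045). That second call was lost in 10 of the alternatives run, among them those without Rbpj replicate 2 or DBZ replicate 2. Nrarp, a feedback inhibitor induced by Notch, was 0.61 below ISC and 1.49 above DBZ Sec-Pro. Hes5 (-0.52), Hey1 (-0.99) and the Fringe glycosyltransferases Mfng (-0.52) and Rfng (-0.90) also fell against ISC.

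The 3 genes that rose were the ligands Dll4 and Dll1 and the Notch antagonist Numb (0.89). Dll4 read 6.07 and 6.31 in ISC and 8.01 and 8.07 in Rbpj Sec-Pro, 3.61-fold higher (adjusted p 6.9e-05). Dll1 was 1.98-fold higher, but its call was lost without either ISC array or without Rbpj replicate 2, where it read 11.26 against 10.04 on replicate 1. The count of Notch genes that fell was 9 without ISC replicate 2. With cyclic loess scaling 8 fell and 8 rose.

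The Rbpj-binding letters GTGGGAA, searched on both strands in RefSeq promoter windows (GRCm38.p6, 250 bases before to 50 after a start), occurred for 7.27% of the 9887 genes with a window. They occurred for 6.8% of the higher and 6.16% of the lower genes. In the Notch list 7 of 29 genes (24.1%) held them, namely Aph1a, Hes5, Hes7, Hey2, Lfng, Psen2 and Spen. Spen is shown because it had the largest decrease of these; the 150 bases before its start lie at chr4:141538598-141538747 on the minus strand, with the match in capitals, 9 bases before the start.
Spen: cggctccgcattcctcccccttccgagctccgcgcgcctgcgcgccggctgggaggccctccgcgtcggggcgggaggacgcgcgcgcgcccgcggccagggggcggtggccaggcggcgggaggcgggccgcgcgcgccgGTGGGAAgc
A match describes letters in this window and is not a measured binding site.

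Of 23 measured regulators of the secretory lineages, 11 were higher, 2 were lower and 10 did not pass (median 0.71). ISC were sorted for Lgr5 cells, while the Rbpj arrays hold whole crypt with its secretory cells. For these genes and the cell type lists below, the sort and Rbpj loss cannot be told apart. Atoh1 read 7.68 and 7.80 in ISC, against 10.40 and 10.78 on the Rbpj arrays and 11.80 and 11.85 on the DBZ arrays. The 3 groups were fully separated, with Rbpj Sec-Pro between the others and 7.23-fold above ISC (log2 2.85, SE 0.15, adjusted p 1.6e-05).

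Gfi1, a zinc finger repressor that acts below Atoh1, was 7.60-fold higher than in ISC. The goblet and Paneth maturation factor Spdef was 6.01-fold higher. Insm1 and Neurog3, factors of the enteroendocrine lineage, were 2.76 and 1.79 (log2) higher, and Creb3l4, an endoplasmic reticulum-bound transcription factor, 2.34. Klf4, a factor of goblet cell differentiation, was 1.81 higher, at 11.96 and 11.77. It read 12.49 and 12.50 in ENT, of Atoh1-/- mice, so its level is not particular to goblet cells here.

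Sox9, a factor of stem and Paneth cells, was lower by its chosen probe set (-1.74, adjusted p 0.00028), but the other gave 0.49. Bhlha15, which drives secretory cell architecture, read 8.15 and 8.59 in ISC and 8.53 and 9.63 in Rbpj Sec-Pro. Those groups overlapped and the difference of 0.71 did not pass.

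Goblet cell genes were higher for 13 of 16 measured, with none lower (median 2.11). Clca1, a secreted mucus protein, read 8.98 and 8.84 in ISC and 12.83 and 13.52 in Rbpj Sec-Pro. Both Rbpj arrays were far above ISC, by 19.3-fold (log2 4.27, SE 0.25, adjusted p 2.0e-05). Rep15 was 10.6-fold, Guca2a (guanylin) 8.36-fold, the chemokine Ccl9 8.04-fold and the mucin-folding enzyme Agr2 5.68-fold higher. Retnlb, an antimicrobial goblet product, did not pass, with 4.80 and 5.47 in ISC and 5.62 and 10.46 in Rbpj Sec-Pro: only replicate 2 was high. Muc2 was not analysed here.

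Paneth cell genes were higher for 5 of 14 measured and lower for 1 (median 1.04). The count higher was 2 without ISC replicate 1 and 3 without Rbpj replicate 2. Guca2b (uroguanylin), placed in this list, read 9.07 and 9.67 in ISC and 13.53 and 13.34 in Rbpj Sec-Pro, 16.8-fold higher with no overlap (adjusted p 6.7e-05). It also read 13.21 and 13.43 on the ENT arrays and 12.60 and 11.44 on the Ent-Pro arrays, both of Atoh1-/- mice, so its level is not particular to Paneth cells here. The phospholipase Pla2g2a was 4.41-fold higher. Mptx1 and Pnliprp2 lost their calls without ISC replicate 1 or Rbpj replicate 2. Cd177 was lower (-1.38), a call lost under all 3 scalings, without either ISC array and without Rbpj replicate 2. Lyz1, the lysozyme of Paneth cells, was at the top of the scale in Rbpj Sec-Pro, at 15.05 on both arrays against 14.57 and 14.89 in ISC, so its difference could not be measured.

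Enteroendocrine genes were higher for 20 of 24 measured, with none lower (median 1.41). The count was 11 without ISC replicate 1 and 12 without Rbpj replicate 1. The list median of Rbpj replicate 2 minus replicate 1 was -0.70. Nts, the hormone neurotensin, read 4.20 and 4.19 in ISC, near background, and 9.80 and 7.04 in Rbpj Sec-Pro, at least 12.4-fold higher (adjusted p 0.0013). Both Rbpj arrays were above ISC, but 2.76 apart. Secretin (Sct) was 6.40-fold, the tachykinin Tac1 5.79-fold and somatostatin (Sst) 3.63-fold higher. Chga, a granule protein, was 1.94-fold higher, a call lost without ISC replicate 1 or Rbpj replicate 1. Pyy (-0.06) and Gal (-0.40) did not pass.

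Of 14 tuft cell genes, 1 was higher and 1 lower (median 0.85), both shares below those over all genes (17.7% and 29.4%). The Rbpj arrays split over this list: 9 of 14 genes were over 2-fold higher on replicate 2, with a median gap of 1.79. Dclk1, a kinase that marks tuft cells, read 5.92 and 4.93 in ISC and 5.48 and 9.26 in Rbpj Sec-Pro, so that replicate 1 lay within ISC and replicate 2 far above. Without Rbpj replicate 1 the count of higher tuft genes was 10, and without Rbpj replicate 2 it was 0. Pou2f3, the tuft cell master regulator, was the gene called higher (1.57-fold), and Sox9 the gene called lower.

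**Figure D3:**
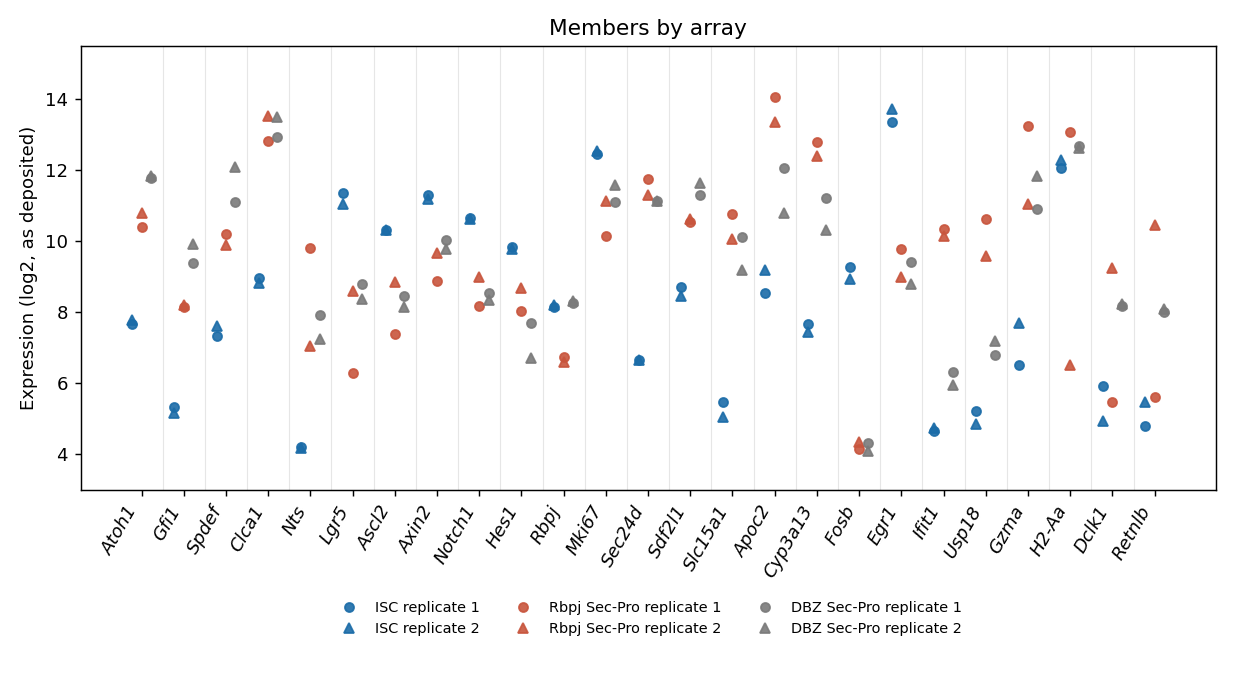
Expression (log2, vertical axis) of 25 genes (horizontal axis) on the ISC (blue), Rbpj Sec-Pro (red) and DBZ Sec-Pro (grey) arrays; circles are replicate 1 and triangles replicate 2. Atoh1, Gfi1, Spdef and Clca1 are separated between ISC and Rbpj Sec-Pro, while H2-Aa, Dclk1 and Retnlb split the Rbpj arrays.

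Folding and quality-control genes of the endoplasmic reticulum were higher for 19 of 28 measured and lower for 2 (median 0.77). Sdf2l1, a component of chaperone complexes, read 8.71 and 8.45 in ISC and 10.55 and 10.63 in Rbpj Sec-Pro, 4.02-fold higher without overlap (adjusted p 3.6e-05). Edem1, which sends misfolded glycoproteins to degradation, was 3.50-fold higher, Manf 3.15-fold and Sel1l 2.86-fold. Pdia6, a disulfide isomerase, was 2.60-fold higher; its other probe set gave 0.57 and was not called. Hspa5, the main chaperone of this compartment, was 0.46 higher. The sensor kinase Ern1 (-0.66) and Atf4 (-0.61) fell.

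The endoplasmic reticulum stress element, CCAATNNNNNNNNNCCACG on either strand, was found for 18 of 9887 genes with a window (0.182%). It was found for 0.337% of the genes higher than ISC and 0.168% of the lower genes. It occurred for 7 of 23 folding genes (30.4%), namely Calr, Canx, Creld2, Dnajc3, Hsp90b1, Hspa5 and Pdia6. Of these Canx, Creld2, Hspa5 and Pdia6 were called higher, while Dnajc3 (0.70), Hsp90b1 (0.33) and Calr (0.29) did not pass. A pair is shown to set the element in its promoter: Hspa5 at chr2:34771940-34772089, 65 bases before the start, and Pdia6 at chr12:17266439-17266588, 98 bases before the start, both on the plus strand, with the match in capitals.
Hspa5: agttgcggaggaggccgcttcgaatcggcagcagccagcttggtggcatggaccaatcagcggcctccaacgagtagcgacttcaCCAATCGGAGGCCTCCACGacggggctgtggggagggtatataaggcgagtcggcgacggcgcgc
Pdia6: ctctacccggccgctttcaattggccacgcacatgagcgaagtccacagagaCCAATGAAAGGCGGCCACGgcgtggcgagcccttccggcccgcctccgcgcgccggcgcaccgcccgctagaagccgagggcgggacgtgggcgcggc

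Genes of export from the endoplasmic reticulum were higher for 22 of 33 measured and lower for 2 (median 0.85). Sec24d, a cargo adaptor of COPII vesicles, read 6.67 and 6.65 in ISC and 11.75 and 11.31 in Rbpj Sec-Pro. The arrays were widely separated, by 29.3-fold (log2 4.87, SE 0.15, adjusted p 1.1e-06). Kdelr3, a retrieval receptor, was 10.2-fold, the COPII coat protein Sec23a 9.65-fold and the GTPase Sar1b 3.31-fold higher. Rab27a (-0.58) and Kdelr1 (-0.47) fell. The ENT arrays, of Atoh1-/- mice, gave 12.06 and 12.20 for Sec24d, 11.83 and 12.02 for Sec23a and 12.85 and 12.87 for Sar1b. The levels of these genes are thus not particular to secretory cells here. Kdelr3 was lower there than on the Rbpj arrays, at 8.02 and 8.03. The export list mean was 10.28 and 10.23 for ENT, against 10.38 and 10.27 on the Rbpj arrays.

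Against the label of secretory progenitors, genes of absorptive enterocytes were also higher in Rbpj Sec-Pro. Brush border and absorption genes rose for 19 of 21 measured (median 3.17), lipid absorption genes for 17 of 20 (median 2.38) and xenobiotic metabolism genes for 21 of 24 (median 3.12), with none lower in any of the 3 lists. The list mean of the brush border genes was 8.62 and 8.47 in ISC, against 11.41 and 11.11 on the Rbpj arrays, 10.73 and 10.20 with DBZ, 10.47 and 10.24 for Ent-Pro, and 11.81 and 11.86 for ENT. The Rbpj arrays thus lay above the enterocyte progenitors and below the villus enterocytes. How much villus remained in the crypt preparations was not tested.

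Slc2a2, a glucose and fructose carrier, read 7.135 and 7.005 in ISC and 12.60 and 12.27 in Rbpj Sec-Pro, 41.1-fold higher (adjusted p 2.5e-05). Slc15a1, the peptide carrier, read 5.47 and 5.06 against 10.78 and 10.05, 35.6-fold higher. The peptidases Mep1b, Enpep and Anpep were 18.4-fold, 15.1-fold and 14.2-fold higher. Each of these genes was separated between the groups on all 4 arrays. Ush1c (-0.30) and Myo7b (0.13), parts of the links between microvilli, did not pass.

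Apoc2, an apolipoprotein, read 8.56 and 9.18 in ISC and 14.05 and 13.35 in Rbpj Sec-Pro, 28.5-fold higher (adjusted p 8.2e-05). Apoa4 was 15.7-fold, Apoc3 14.6-fold, the lipid transfer protein Mttp 14.3-fold and Mogat2, which rebuilds triglyceride, 12.4-fold higher. Fabp6, the bile acid-binding protein of the ileum, did not pass (-0.28).

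Among cytochrome P450 enzymes, Cyp3a13 read 7.67 and 7.44 in ISC and 12.81 and 12.41 in Rbpj Sec-Pro, 33.1-fold higher (adjusted p 2.0e-05). Cyp1a1, the classic target of the aryl hydrocarbon receptor, read 4.70 and 4.79 in ISC, near background, and 11.05 and 8.78 in Rbpj Sec-Pro. Both Rbpj arrays were above ISC, at least 34.8-fold, and 2.27 apart. Cyp3a11 was 25.4-fold, Cyp4f14 22.3-fold and Cyp2d26 20.4-fold higher.

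Outside these lists, Pmp22, a membrane protein of the claudin superfamily, had the largest increase of all genes tested, from 4.80 and 4.37 in ISC to 11.27 and 10.22, 71.4-fold (adjusted p 1.6e-05). The related Emp1 was 36.9-fold higher. S100a6, a calcium-binding protein, was 43.1-fold higher, and the purine enzymes adenosine deaminase (Ada) and guanine deaminase (Gda) 40.0-fold and 38.5-fold. Bst1, an ectoenzyme that makes cyclic ADP-ribose, was 36.8-fold higher. Enpp3, an ectonucleotidase, was 46.0-fold higher by its chosen probe set, but another of its probe sets gave 0.12. Papss2, which makes the donor for sulfation, was 36.6-fold higher, with another probe set at -0.16. Pmp22 was also high on the DBZ arrays, at 10.41 and 10.06, and on the Ent-Pro arrays, at 9.99 and 10.56. On both ENT arrays Pmp22, Emp1, Ada, Gda, Bst1 and Enpp3 read above both Rbpj arrays, with Ada at 14.74 and 14.48. The ENT values of S100a6 and Papss2 overlapped those of the Rbpj arrays. The levels of these genes are thus not particular to Rbpj deletion here.

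**Figure D4:**
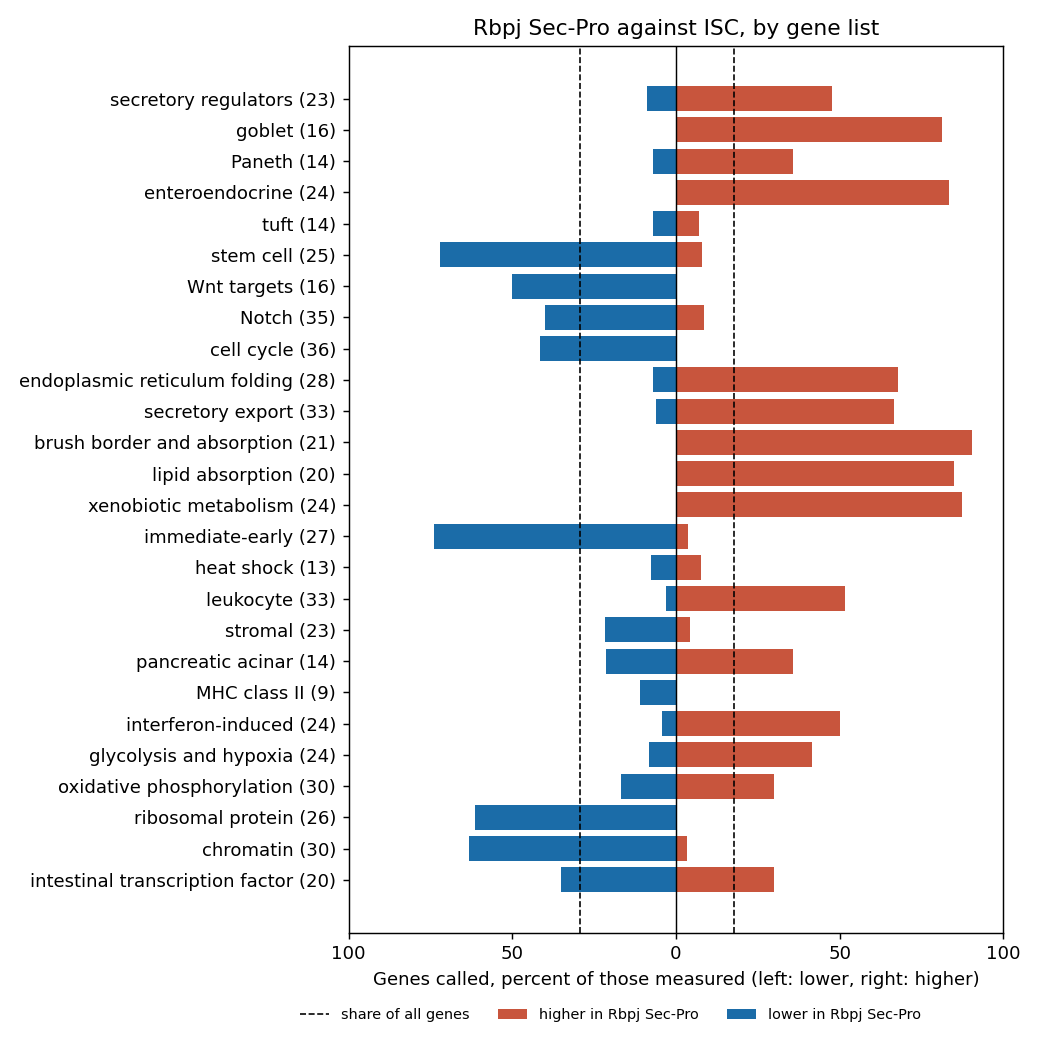
Share of measured genes called higher (right) and lower (left) in Rbpj Sec-Pro than in ISC (percent, horizontal axis) for each gene list (vertical axis, number measured in brackets); dashed lines give the share among all genes, 17.7% higher and 29.4% lower. Brush border, xenobiotic, lipid absorption, enteroendocrine and goblet genes reach farthest to the right, and immediate-early and stem cell genes farthest to the left.

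Stem cell genes fell for 18 of 25 measured and rose for 2 (median -1.27). ISC were sorted on the Lgr5 reporter and the Rbpj arrays hold whole crypt. A lower level of genes of Lgr5 cells is thus built into the comparison. No array holds whole crypt of untreated mice without a deletion, so the sort and Rbpj loss cannot be told apart here. Lgr5, on whose reporter the ISC were sorted, read 11.36 and 11.06 in ISC and 6.31 and 8.61 in Rbpj Sec-Pro, 13.5-fold lower, with the Rbpj arrays 2.30 apart. Fstl1, a secreted follistatin-like glycoprotein, read 9.78 and 9.32 against 5.12 and 6.15, 15.2-fold lower (adjusted p 7.0e-05). Both Rbpj arrays were below both ISC arrays for each gene.

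Ascl2, a transcription factor of Lgr5 cells, was 4.62-fold lower and Igfbp4 4.46-fold. Msi1, an RNA-binding protein, was 5.75-fold lower by its chosen probe set, with 0.095 by the other. The genes that rose were Hopx (0.89) and Gpx2 (0.62). Bmi1 (0.20) did not pass. The list was higher on Rbpj replicate 2 than on replicate 1, by a median of 0.47. Olfm4 was not analysed here.

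Targets of Wnt signalling fell for 8 of 16 measured, with none higher (median -0.88). Axin2, a feedback inhibitor, read 11.32 and 11.19 in ISC and 8.89 and 9.68 in Rbpj Sec-Pro, 3.91-fold lower without overlap (adjusted p 0.00023). The receptor tyrosine kinase Ephb3 was 4.56-fold and the ubiquitin ligase Rnf43 4.04-fold lower. Cd44 (-0.39) and Ccnd1 (-0.62) did not pass. Lgr5, Ascl2, Axin2, Rnf43, Sp5 and Sox9 are in both this list and the stem cell list, so the sort bears on both.

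Cell cycle genes fell for 15 of 36 measured, with none higher (median -0.47). The count was 6 without ISC replicate 1 and 9 without Rbpj replicate 1. Mki67, a marker of cycling cells, read 12.47 and 12.54 in ISC and 10.14 and 11.13 in Rbpj Sec-Pro, 3.65-fold lower (adjusted p 0.0016). The kinetochore motor Cenpe was 3.95-fold lower, and the replicative helicase subunits Mcm2 and Mcm3 2.73-fold and 2.28-fold. Pcna (0.14), Cdk1 (0.08) and Ccne2 (0.40) did not pass.

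Immediate-early genes, which cells induce within minutes of a stimulus and also during handling, fell for 20 of 27 measured and rose for 1 (median -1.09). Fosb read 9.28 and 8.93 in ISC and 4.16 and 4.36 in Rbpj Sec-Pro, near background there, at least 21.9-fold lower (adjusted p 1.1e-06). Egr1 read 13.35 and 13.73 against 9.777 and 8.999, 17.8-fold lower. Egr2 was 20.5-fold, the phosphatase Dusp1 11.9-fold and the nuclear receptor Nr4a1 11.1-fold lower. Fos itself was 2.50-fold lower, a call lost without ISC replicate 1. Klf4 was the gene that rose.

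The ISC arrays are the ones whose cells were described as sorted, and sorting and cell type cannot be told apart here. The DBZ arrays, which like the Rbpj arrays were not described as sorted, lay near the Rbpj arrays: 4.33 and 4.11 for Fosb, 9.42 and 8.81 for Egr1. Heat shock genes had 1 of 13 higher (Dnaja1, 0.75) and 1 lower (Hspe1, -0.47), with a median of -0.14. Both shares are below those over all genes (17.7% higher and 29.4% lower). Dnaja1 lost its call when any 1 of the 4 arrays was left out, and Hspe1 when any of them but Rbpj replicate 2 was.

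Leukocyte genes were higher for 17 of 33 measured and lower for 1 (median 1.43). Only the ISC were described as sorted, so here too the sort and Rbpj loss cannot be told apart. Their list mean was 5.50 and 5.73 in ISC, against 7.72 and 6.41 on the Rbpj arrays and 6.89 and 7.44 on the DBZ arrays. The count higher was 6 without ISC replicate 1 and 9 without ISC replicate 2. Gzma, a granzyme of cytotoxic lymphocytes, read 6.53 and 7.70 in ISC and 13.25 and 11.05 in Rbpj Sec-Pro, 32.8-fold higher (adjusted p 0.00039). Ptprc, the pan-leukocyte antigen CD45, was near background in ISC at 4.40 and 4.56 and read 9.83 and 7.74 in Rbpj Sec-Pro, at least 15.9-fold higher. Both genes were separated between the groups, and Rbpj replicate 1 was the higher in each.

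Gzmb was 13.4-fold, the T cell receptor component Cd3g 10.2-fold and the chemokine Ccl5 9.15-fold higher. Cd3g and Ccl5 lost their calls without ISC replicate 1. Prf1 fell (-0.68), and the B cell genes Ms4a1 (-0.06) and Cd79a (-0.21) did not pass. Of 23 stromal genes, 1 rose (Vim, 2.12, a call lost without either ISC array) and 5 fell (median -0.05); 6 were near background in both groups. Both shares are below those over all genes tested, of which 17.7% were higher and 29.4% lower. The stromal genes that fell numbered 2 after median centring, 1 after cyclic loess and 2 after quantile scaling, and 1 without ISC replicate 2 or without Rbpj replicate 2.

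Interferon-induced genes were higher for 12 of 24 measured and lower for 1 (median 1.03). Ifit1, an RNA-binding antiviral protein, read 4.67 and 4.75 in ISC, near background, against 10.35 and 10.15 on the Rbpj arrays and 6.32 and 5.95 on the DBZ arrays. Rbpj Sec-Pro was highest, at least 44.0-fold above ISC (adjusted p 0.00021). Usp18, which limits interferon receptor signalling, read 5.23 and 4.85 in ISC and 10.63 and 9.58 in Rbpj Sec-Pro, 33.5-fold higher. Oasl2 was 7.96-fold, Ifit3 6.83-fold and Rsad2 (viperin) 6.63-fold higher. Irf1 fell (-0.50). The villus ENT arrays gave 10.60 and 10.96 for Usp18, so its level is not particular to Rbpj deletion here. Ifit1 was 7.51 and 10.08 there. The interferon list mean was 7.80 and 8.28 for ENT, with Rbpj replicate 2 between them at 8.04. For Ent-Pro it was 7.02 and 7.41.

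Rbpj replicate 1 was over 2-fold higher than replicate 2 for 11 of the 24 interferon genes (median gap -0.98 for replicate 2 minus replicate 1), and its leukocyte list mean was the higher too. The interferon count higher was 8 without ISC replicate 1 and 8 without Rbpj replicate 1, where 4 genes were lower. The part of leukocytes in the interferon result was not tested; in DBZ Sec-Pro, with leukocyte means of 6.89 and 7.44, the interferon list means were 7.02 and 7.06, against 7.17 and 7.37 in ISC and 9.09 and 8.04 in Rbpj Sec-Pro.

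The interferon-stimulated response element, GAAANNGAAA on either strand, was searched after these genes had been seen. It was found for 380 of 9887 genes with a window (3.84%) and for 11 of 19 genes of the interferon list (57.9%). Among genes higher than ISC its share was 4.61%, and among lower genes 3.4%. The list was made of genes known as interferon-induced, so its share does not bear on these arrays. Ifit1 and Rsad2 are shown as members with a large increase that carry it: Ifit1 at chr19:34640739-34640888 on the plus strand, with matches 104 and 85 bases before the start, and Rsad2 at chr12:26456453-26456602 on the minus strand, with its match 120 bases before the start. Capitals mark the matches, here read on the opposite strand.
Ifit1: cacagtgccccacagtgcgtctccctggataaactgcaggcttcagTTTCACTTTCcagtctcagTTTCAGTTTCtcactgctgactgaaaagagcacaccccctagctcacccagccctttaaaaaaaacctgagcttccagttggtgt
Rsad2: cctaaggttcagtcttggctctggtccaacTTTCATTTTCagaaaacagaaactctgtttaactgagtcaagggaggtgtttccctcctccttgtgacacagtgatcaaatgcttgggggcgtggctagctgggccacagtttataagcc

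Genes of MHC class II presentation split the Rbpj arrays most of all lists. Of 9 measured, 6 were over 2-fold higher on replicate 1, with a median gap of -3.28 for replicate 2 minus replicate 1. H2-Aa, an antigen-presenting chain, read 12.07 and 12.29 in ISC, against 13.07 and 6.53 on the Rbpj arrays and 12.68 and 12.62 on the DBZ arrays. Replicate 1 was above ISC and replicate 2 far below every array named. The ENT arrays split over this gene as well, at 12.20 and 8.89. Their MHC class II list means were 8.68 and 7.11, against 8.94 and 5.97 on the Rbpj arrays. A split over this list is thus not particular to the Rbpj arrays. The invariant chain Cd74 read 10.84 and 11.10 in ISC and 10.70 and 6.17 in Rbpj Sec-Pro.

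With both arrays, 1 MHC class II gene was called, Ciita, the transactivator of the class (4.16-fold lower), and its other probe set was not called. Without Rbpj replicate 1 the count lower was 6, and H2-Aa, H2-Ab1, H2-Eb1 and Cd74 were among the genes then called. Ubd, an interferon-inducible ubiquitin-like protein, showed the same split, with 10.53 and 4.38. H2-Bl, of class I, read 12.81 and 8.30 in Rbpj Sec-Pro against 6.56 and 6.96 in ISC. Smpx (4.76 and 8.50) and the lipase-related Pnliprp1 (5.55 and 9.23) were higher on replicate 2.

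**Figure D5:**
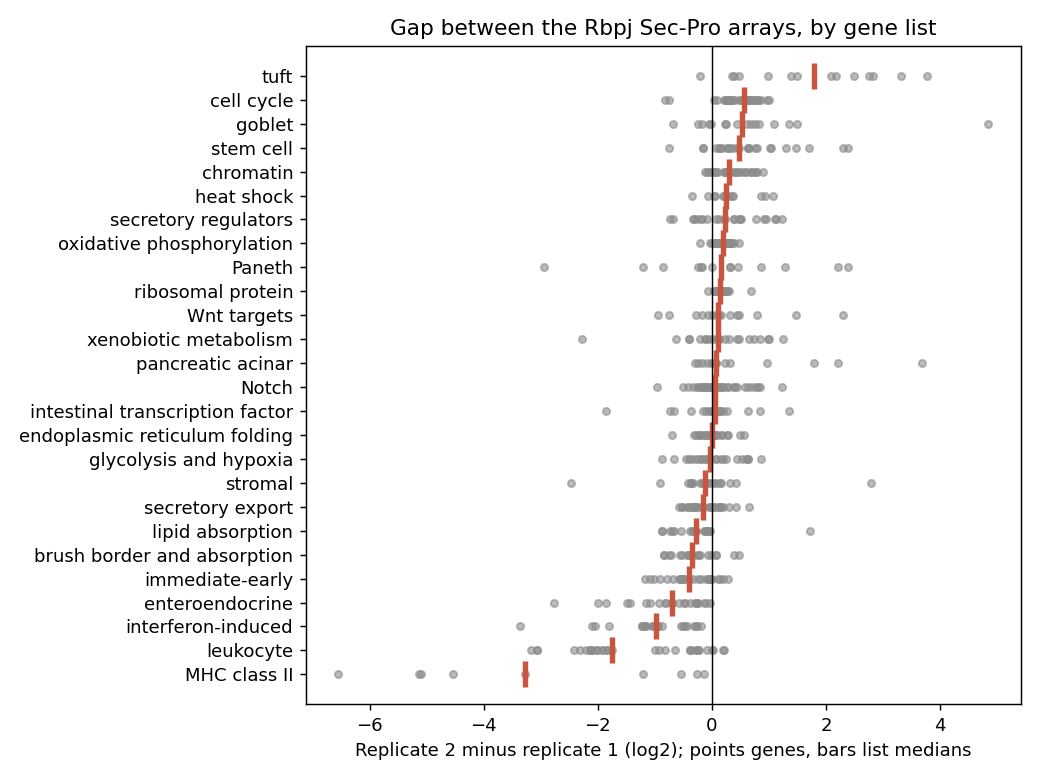
Rbpj Sec-Pro replicate 2 minus replicate 1 (log2, horizontal axis) for each gene (grey points) of each list (vertical axis), with list medians as red bars. Medians run from -3.28 for MHC class II genes to 1.79 for tuft genes.

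The largest decreases from ISC included genes outside the lists. Gt(ROSA)26Sor, the transcript of the Rosa26 locus often used to carry transgenes, read 8.89 and 8.47 in ISC, against 3.67 and 3.71 on the Rbpj arrays and 9.19 and 9.27 on the DBZ arrays. It was near background on both Rbpj arrays, at least 16.3-fold lower than ISC (adjusted p 1.1e-06). It was also low on both arrays of Ent-Pro, from Atoh1-/- mice, at 4.00 and 3.81, but not in ENT, at 8.17 and 8.28. The labels give no allele at this locus.

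Cbx6, a Polycomb protein, was 12.8-fold lower than ISC, with 9.88 and 9.68 against 6.53 and 5.67, and read 9.16 and 9.29 on the DBZ arrays. Edn1 (endothelin) was 13.0-fold, Gm6958 13.1-fold and Sycn 12.3-fold lower, and the linker histone H1f4 at least 8.24-fold.

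Against DBZ Sec-Pro, the other preparation with Notch signalling interrupted, 878 genes were higher (7.08%) and 1158 lower (9.34%) in Rbpj Sec-Pro. Without DBZ replicate 2 these were 164 and 199, and without Rbpj replicate 1 they were 445 and 573; without DBZ replicate 1 the lower count was 682. Of 23 secretory regulators, 16 were lower than in DBZ Sec-Pro and none higher (median -1.23, against -0.06 for all genes). Atoh1 was 1.23 lower (adjusted p 0.0032), Gfi1 1.48 lower and Spdef 1.54 lower. Bhlha15 was 2.60 lower, reading 11.36 and 12.01 in DBZ Sec-Pro. The count of lower regulators was 11 to 16 when an Rbpj or DBZ array was left out, and 2 with only the 4 arrays of these groups.

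Folding genes were lower than in DBZ Sec-Pro for 11 of 28 and higher for 1, and export genes lower for 8 of 33 and higher for 3. Goblet genes were lower for 5 of 16 and higher for 1. Xenobiotic genes were higher for 12 of 24, lipid absorption genes for 9 of 20 and brush border genes for 6 of 21, with none lower. Interferon genes were higher for 13 of 24, with none lower (median 1.64).

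These counts leaned on single arrays. Without DBZ replicate 2, the lower folding genes numbered 2, the lower export genes 2, the lower goblet genes 1, and the higher xenobiotic, lipid, brush border and interferon genes 7, 2, 2 and 7. Without DBZ replicate 1 the higher interferon genes were 7 as well. Without Rbpj replicate 1, lower folding genes numbered 4, lower export genes 4 and higher lipid genes 4. Without Rbpj replicate 2, higher brush border genes numbered 13, higher interferon genes 20 and lower goblet genes 8. With only the 4 arrays of these groups, no folding, export or goblet gene was called lower, and the higher xenobiotic, interferon, lipid and brush border genes numbered 4, 5, 2 and 1.

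The 2 Sec-Pro groups share their ISC arrays when set against them, so their differences are given side by side. DBZ Sec-Pro against ISC had 1971 genes higher (15.9%) and 2512 lower (20.3%). Secretory regulators were higher for 20 of 23 with DBZ and 11 of 23 with Rbpj deleted. Interferon genes were higher for 1 of 24 and lower for 4 with DBZ, and higher for 12 and lower for 1 with Rbpj deleted. Xenobiotic genes were higher for 12 of 24 and for 21 of 24, and stem cell genes lower for 13 of 25 and for 18 of 25, in the same order.

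The largest increases over DBZ Sec-Pro outside the lists were in S100g, an intestinal calcium-binding protein, and Abhd1. S100g read 11.66 and 13.01 in Rbpj Sec-Pro, 5.67 and 7.63 in DBZ Sec-Pro and 8.18 and 7.71 in ISC. Both Rbpj arrays were above these, by 5.69 over DBZ Sec-Pro (adjusted p 0.0075); villus enterocytes read 12.97 and 13.61. Slc40a1, the iron exporter ferroportin, read 10.85 and 11.14 on the Rbpj arrays, above 6.92 and 7.23 on the DBZ arrays. Villus enterocytes read higher still for Slc40a1, at 12.15 and 12.76. Slc40a1 was 17.7-fold higher than in ISC. Bbox1, which completes carnitine synthesis, was 18.4-fold higher than in ISC and 4.07 (log2) higher than in DBZ Sec-Pro.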

How the data were processed

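RNA of 5 groups of 2 samples was measured on 10 arrays. The deposited values are log2 expression of 22690 probe sets; the submitters' processing notes name RMA and MAS5, with neither role nor version. Array medians lay between 6.83 and 6.98, and the values were used without further scaling. Of the probe sets, 20393 carried 1 gene symbol in the platform annotation, 691 several and 1606 none; the last 2 kinds and 64 control probe sets were left out. Each gene was read from its brightest probe set by mean over the arrays (4956 genes had several), giving 12393 genes.

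All arrays entered 1 model with 5 group means in limma 3.58.1 (R 4.3.3; lmFit and eBayes, 5 residual and 3.75 prior degrees of freedom), which was tested on simulated data. A gene is near background when no array of a group exceeds the absent control TrpnX by over 1 (log2), and at the top of the scale when within 0.1 of the array's highest value; both bounds were chosen after the values had been seen, and folds against such a group are "at least". The number of arrays limits the precision.

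Gene lists and members were chosen with earlier results of these data known. Named genes are the 12 largest called differences in each direction from ISC, from each list up to 5 called members, the 8 largest in each direction from DBZ Sec-Pro, the 10 and 5 largest gaps between the Rbpj and the ISC arrays, and a fixed set (Rbpj, Atoh1, Lgr5, Olfm4, Hes1, Muc2, Lyz1, Chga, Mki67, Notch1, Dll1, Fos, Gapdh, Actb). Other list members are named where a count needs them and were chosen after their values were seen. Olfm4, Muc2 and Gapdh were not among the genes tested. Alternatives were other scalings, probe sets, filters on dim genes, variance priors, a 2-fold null, only 4 arrays, a replicate block and leaving out each array.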

Additional observations from a re-analysis of the deposited data

Results flagged for a closer look

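Each of these genes differed between Rbpj Sec-Pro and DBZ Sec-Pro, whose differences from ISC share the same ISC arrays; the values are Rbpj minus DBZ Sec-Pro (log2), each called in limma at an adjusted p below 0.05. Higher with Rbpj deleted were S100g (5.69), Cyp1a1 (5.27), Abhd1 (4.50), the carnitine enzyme Bbox1 (4.07), Slc40a1 (3.92), the glutathione transferase Gsta2 (3.83) and the annexin Anxa10 (3.72). Among interferon-induced genes, Ifit1 was higher by 4.12, Rsad2 by 3.29, Usp18 by 3.11, Ifit3 by 2.98 and Oasl2 by 2.84. Hes1 (1.16) and Fos (1.50) were higher too. In villus enterocytes (ENT), not labelled as Rbpj knockout, S100g read 12.97 and 13.61 and Slc40a1 12.15 and 12.76. Cyp1a1 read 9.29 and 10.13 there, Gsta2 8.75 and 9.05, Usp18 10.60 and 10.96 and Rsad2 8.30 and 9.85. The levels of these genes are thus not particular to Rbpj deletion here. Abhd1 (7.06 and 6.99), Bbox1 (7.56 and 7.87) and Ifit1 (7.51 and 10.08) read lower in ENT than on the Rbpj arrays.

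Lower with Rbpj deleted were Gt(ROSA)26Sor (-5.54), Cbx6 (-3.13), the cytochrome Cyp2e1 (-3.07), the immunoglobulin segment Igkv8-30 (-2.99), Bhlha15 (-2.60), Tceal8 (-2.59), the matrix protein Thbs1 (-2.56), Epb42 (-2.53), Rbpj itself (-1.61) and Atoh1 (-1.23). Anxa10 read 9.22 and 5.91 on the Rbpj arrays and lost its call without either DBZ array, as Ifit1, Tceal8 and Fos did without DBZ replicate 2.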

How the results depend on the processing

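Against ISC, 380 genes were higher and 207 lower when tested against a 2-fold change, and 2182 were lower among genes above the median level. Leaving out 1 array at a time gave 1600 to 2258 higher and 2698 to 3552 lower; a lone array was assumed to vary like the other groups. Against DBZ Sec-Pro, counts higher and lower were 54 and 43 with only 4 arrays, 523 and 644 above the median level, and 13 and 6 against a 2-fold change. Leaving out 1 array gave 164 to 1194 higher and 199 to 1548 lower (752 lower without either Ent-Pro array).

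The labels' replicate numbers do not pair samples (correlation of deviations between ISC and Rbpj Sec-Pro -0.19). With the replicate number as a block, 2111 and 3467 genes were called against ISC and 762 and 951 against DBZ Sec-Pro; the block lost Cd177 and the Hes1 difference from DBZ Sec-Pro and added Bhlha15.

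With the lowest probe set of a gene, Papss2 (-0.16), Thbs1 (-1.68), Sox9 (0.49), Msi1 (0.095), Hif1a (-0.17), Sdhd (-0.36), Sdha (-0.037) and Uty (0.077) reversed; the cause was not tested. Among named genes, 136 combinations of gene and setting lost a call and 17 gained one, of 3854 run.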

Other observations

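Chromatin genes fell for 19 of 30 measured and rose for 1 (median -0.64, against -0.14 for all genes). Dnmt1, the maintenance DNA methyltransferase, read 11.43 and 11.42 in ISC and 9.67 and 10.20 in Rbpj Sec-Pro, 2.81-fold lower. Its partner Uhrf1 was 3.27-fold lower, and the remodeller Chd4 4.57-fold, with 10.61 and 11.77 in ISC. Ribosomal protein genes fell for 16 of 26 with none higher (median -0.37), a count of 9 without either ISC array and 8 without Rbpj replicate 1, and of 7 with only the 4 arrays compared.

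Genes of glycolysis and hypoxia were higher for 10 of 24 and lower for 2 (median 0.49). Egln3, a prolyl hydroxylase induced by low oxygen, read 4.83 and 4.59 in ISC and 9.67 and 9.73 in Rbpj Sec-Pro, 31.7-fold higher (adjusted p 1.1e-06); its other probe set gave 0.85. Ldha was 2.60-fold higher. Oxidative phosphorylation genes were higher for 9 of 30 and lower for 5 (median 0.10), with 4 higher without ISC replicate 2 and 3 lower without ISC replicate 1. Intestinal transcription factors were higher for 6 of 20 and lower for 7 (median -0.09; 2 higher without ISC replicate 2), with Creb3l3 8.38-fold higher and Nr5a2 6.78-fold lower. Pancreatic acinar genes were higher for 5 of 14 and lower for 3 (median 0.30; 3 higher without either ISC array or without Rbpj replicate 2; 8 higher under cyclic loess), led by Spink1, 12.8-fold higher. Spink1 and Reg1 were also high in the Atoh1-/- enterocytes, at 13.89 and 13.80 for Spink1 and 13.98 and 13.89 for Reg1. Over all genes tested, 17.7% were higher and 29.4% lower. The share of intestinal transcription factors that fell was near the latter. Those of oxidative phosphorylation and acinar genes that fell were below it.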
